A study of Mus musculus with 18 samples.

Results

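The insulin-like growth factor (IGF) axis in BMC brown adipocytes was described through 10 genes, taken by name from the deposited count table of 45706 genes. They are the ligands Igf1 and Igf2, the receptor Igf1r, the binding proteins Igfbp2, Igfbp3, Igfbp4, Igfbp5, Igfbp6 and Igfbp7, and the protease gene Pappa. Of the 10, 8 passed the filter on low counts and were tested among 14788 genes, while Igf2 and Igfbp2 did not pass. The list of names was made with results of these same 18 libraries known and so counts as selected on their expression values, and levels by set of replicate numbers are given as a description.

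BMC is an immortalised line of mouse brown preadipocytes, grown to confluence and differentiated in culture, and all 18 libraries come from this 1 line. All groups share the same differentiation. It began with isobutylmethylxanthine (0.5 mM), indomethacin (0.125 mM), dexamethasone (1 µM), triiodothyronine (1 nM) and insulin (20 nM), went on with the last pair at these doses, and ended on day 7, when the cells were used. The labels give 3 groups of 6 libraries: not induced (0 h), and 4 h or 24 h after 1 µM norepinephrine, the transmitter that starts lipolysis in brown fat. The series profiles transcripts across this stimulus. The titles number the libraries of each time 1 to 6, and nothing in the labels says that each was a culture of its own. The p-values therefore measure the spread between libraries, which may be technical.

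IGF1 and IGF2 are secreted growth factors that act through the receptor tyrosine kinase IGF1R, which shares its downstream adaptors with the insulin receptor. The binding proteins carry the factors and hold them away from the receptor. PAPP-A, the metalloprotease encoded by Pappa, cleaves IGFBP4 and IGFBP5 and so releases bound IGF, and stanniocalcins inhibit it. In fat, IGF1 and insulin are known as signals for the differentiation of preadipocytes.

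Libraries with numbers 1 and 4, 2 and 5, or 3 and 6 resembled each other across all genes whatever their labelled time. Deviations from the time means had a median correlation of 0.590 between libraries of the same number at different times, 0.569 between libraries whose numbers are 3 apart, and -0.270 between all others. No label says what a number stands for. The numbers order what follows, and the sets were recognised from these same expression values. Differences between sets are given as a description with no test. The library 24 h replicate 5 stood apart: the genes Yam1, Gm26917, mt-Rnr1, mt-Rnr2 and Lars2, which gather ribosomal RNA reads, took 63.9% of its counts, beside 11.8% to 20.2% in the other 17. Its total of 7010742 was the lowest, against 8924701 to 26501223 elsewhere.

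Promoter sequences are shown for 4 members that moved in different ways between the number sets: Igf1r and Igfbp5, low in numbers 1 and 4, Igfbp4, high there, and Igfbp7, highest in numbers 3 and 6. They are RefSeq windows on GRCm38.p6, 250 bases before to 50 bases after the RefSeq start (which can differ from the GENCODE start used for gene positions), printed 5′ to 3′ on the strand of the gene. Capitals mark matches, on either strand, to the motifs named after them. Igf1r lies at chr7:67952007-67952306 (+), Igfbp5 at chr1:72874816-72875115 (-), Igfbp4 at chr11:99040994-99041293 (+) and Igfbp7 at chr5:77407996-77408295 (-).
Igf1r: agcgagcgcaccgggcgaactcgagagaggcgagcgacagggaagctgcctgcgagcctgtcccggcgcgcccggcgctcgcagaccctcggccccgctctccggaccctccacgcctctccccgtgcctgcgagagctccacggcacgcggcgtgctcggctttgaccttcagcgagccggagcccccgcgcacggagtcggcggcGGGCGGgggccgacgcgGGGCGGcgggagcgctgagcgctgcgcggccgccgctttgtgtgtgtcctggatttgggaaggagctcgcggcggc
Igfbp5: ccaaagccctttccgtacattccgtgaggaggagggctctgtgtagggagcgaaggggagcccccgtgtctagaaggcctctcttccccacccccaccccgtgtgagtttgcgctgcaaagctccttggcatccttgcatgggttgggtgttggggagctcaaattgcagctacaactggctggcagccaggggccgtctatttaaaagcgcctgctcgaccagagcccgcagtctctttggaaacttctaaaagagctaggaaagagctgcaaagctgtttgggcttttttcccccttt
Igfbp4: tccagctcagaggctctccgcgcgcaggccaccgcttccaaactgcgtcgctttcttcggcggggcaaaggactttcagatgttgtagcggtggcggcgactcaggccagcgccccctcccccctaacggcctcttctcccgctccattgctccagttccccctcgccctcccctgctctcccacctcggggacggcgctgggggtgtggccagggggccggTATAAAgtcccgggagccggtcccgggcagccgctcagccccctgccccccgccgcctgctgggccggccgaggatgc
Igfbp7: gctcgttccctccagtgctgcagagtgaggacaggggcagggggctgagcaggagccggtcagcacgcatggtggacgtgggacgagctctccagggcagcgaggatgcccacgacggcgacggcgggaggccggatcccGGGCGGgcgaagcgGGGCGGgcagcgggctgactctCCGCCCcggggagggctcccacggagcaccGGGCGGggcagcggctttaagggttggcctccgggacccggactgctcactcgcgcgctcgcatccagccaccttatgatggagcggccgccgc

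The motifs searched on both strands were the cAMP response element TGACGTCA and its core TGACG (contained in the first), the TATA box TATAAA, the CCAAT box, the GC box GGGCGG, the AP-1 site TGANTCA and the FOXO site GTAAACA. Igf1r held 2 GC boxes, at positions -43 and -26 from the start, and Igfbp7 held 4. Igfbp4 held a TATA box at -28. Igfbp5 held no match to any of them. Of 32851 mouse promoter windows of the same length, 20.8% hold TGACG and 1.79% the full cAMP element, and these 4 windows hold neither. The GC box is in 35.7% of windows, the TATA box in 13.6%, the CCAAT box in 37.4%, the AP-1 site in 7.81% and the FOXO site in 3.65%. Igf1r and Igfbp7 were rich in G and C, at 76.0% and 73.3% with 48 and 33 CpG dinucleotides, and Igfbp4 had 71.3% and 27. Igfbp5 had 56.3% and 10, nearer to the medians of all windows, 52.7% and 7. No window for Pappa was matched, and 9 of the 10 members had at least 1.

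Levels of different genes were compared per kilobase of exon (GENCODE M21, mm10), as CPM per kb, where CPM are counts per 1e+06 of the scaled library total. Igfbp7 was the most abundant member, with a median over the 18 libraries of 96.0 CPM per kb and a range from 70.8 to 207. It was followed by Igfbp3 at 16.4, Igfbp4 at 10.2 and Igf1 at 8.48. Igfbp6 had 3.09, Igfbp5 2.87, Igf1r 1.67 and Pappa 1.10. Among these 8, ranges over libraries overlapped between all neighbours in the order but 2 pairs: Igfbp7 lay above Igfbp3 throughout, and Igf1 above Igfbp6. Igf2 and Igfbp2 were at or near 0, with 0 to 3 and 0 to 4 expected counts per library and 18 and 23 in all. No fold change is given for either, since nearly all libraries lay at or under the 3 counts taken as the floor. IGF ligand transcripts in these cells were thus almost wholly Igf1. In bulk RNA, fewer cells of a type and less RNA per cell cannot be told apart.

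Igf1, the ligand gene (chromosome 10, 87858265 to 87937042), varied least of the 8 members tested. Its CPM were 77.0, 83.3 and 85.1 (lowest, median and highest) in numbers 1 and 4, 69.7, 78.7 and 84.9 in numbers 2 and 5, and 97.1, 99.5 and 109 in numbers 3 and 6. The first pair of sets overlapped, while every library of numbers 3 and 6 lay above every other library. On the log2 scale the means of numbers 3 and 6 stood 0.29 above numbers 1 and 4 and 0.37 above numbers 2 and 5.

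By labelled time Igf1 had 73.3, 82.9 and 109 CPM at 0 h, 69.7, 83.3 and 97.9 at 4 h, and 77.0, 84.6 and 101 at 24 h. The 3 times overlapped almost fully. Against 0 h, log2 fold changes of -0.06 at 4 h and -0.01 at 24 h (SE 0.11 for both, n = 6 and 6) did not pass, with an edgeR adjusted p of 1.00 for each.

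Igf1r, which encodes the receptor that Igf1 activates (chromosome 7, 67952827 to 68233668), separated the 3 number sets completely. It had 16.4, 17.7 and 19.1 CPM in numbers 1 and 4. Numbers 2 and 5 had 37.1, 42.5 and 43.3 CPM, and numbers 3 and 6 had 26.1, 28.0 and 28.2. The mean log2 level was 1.23 higher in numbers 2 and 5 than in numbers 1 and 4, a ratio of 2.35 (ratios between sets, also for other members, are taken back from mean log2 CPM with a prior count of 2), and 0.64 higher in numbers 3 and 6 than in numbers 1 and 4. Within a labelled time the same order held: at 0 h the 6 libraries, in the order of their numbers, had 18.4, 41.8, 28.0, 19.1, 42.6 and 26.1 CPM. By time the medians were nearly equal, with 27.0, 28.1 and 27.3 CPM at the 3 times in order. The ratio of Igf1 to Igf1r counts within a library had a median of 4.62 in numbers 1 and 4, 1.85 in numbers 2 and 5 and 3.56 in numbers 3 and 6.

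Pappa, the protease gene (chromosome 4, 65124174 to 65357509), had the widest span of the 8 members, 2.86 in log2 between its lowest and its highest library. In numbers 1 and 4 it had 4.76 and 4.50 CPM at 0 h, 4.35 and 4.09 at 4 h, and 5.09 and 5.55 at 24 h. In numbers 2 and 5 it had 23.2 and 29.6 CPM at 0 h, 24.9 and 27.2 at 4 h, and 30.3 and 23.9 at 24 h. In numbers 3 and 6 it had 11.8 and 12.6 CPM at 0 h, 10.7 and 14.5 at 4 h, and 12.04 and 12.12 at 24 h. No library of one set reached into another: Pappa was lowest in numbers 1 and 4, intermediate in 3 and 6 and highest in 2 and 5 at each labelled time. The ratio of numbers 2 and 5 to numbers 1 and 4 was 5.51, or 2.46 ± 0.16 in log2 (± the SD within either set, n = 6 and 6), and that of numbers 3 and 6 to numbers 1 and 4 was 2.57. Its fold change between times was near 0, with log2 -0.02 at 4 h (SE 0.56) and 0.01 at 24 h (SE 0.57) against 0 h, edgeR adjusted p = 1.00 for both.

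Igfbp5 (chromosome 1, 72857932 to 72874884), whose product PAPP-A cleaves, had the same order of sets as Pappa. It had 4.66, 5.36 and 6.56 CPM in numbers 1 and 4, 22.7, 23.8 and 32.5 in numbers 2 and 5, and 14.4, 17.2 and 21.4 in numbers 3 and 6. The sets did not overlap. The ratio to numbers 1 and 4, from mean log2 CPM, was 4.52 in numbers 2 and 5 and 3.19 in numbers 3 and 6. The highest value, 32.5 CPM, was that of 24 h replicate 5, and without this library the highest in numbers 2 and 5 was 25.2.

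Igfbp4 (chromosome 11, 99041244 to 99054392), the other substrate of PAPP-A, was highest where Pappa and Igfbp5 were lowest. It had 58.9, 61.4 and 63.3 CPM in numbers 1 and 4, 38.5, 45.3 and 50.7 in numbers 2 and 5, and 23.4, 27.4 and 31.5 in numbers 3 and 6. The sets again did not overlap, and the ratio of numbers 1 and 4, from mean log2 CPM, was 1.38 to numbers 2 and 5 and 2.23 to numbers 3 and 6. The middle set was numbers 2 and 5 for Igfbp4 and numbers 3 and 6 for Pappa. The ratio of Pappa to Igfbp4 CPM in a library had a median of 0.0759 in numbers 1 and 4 (range 0.0666 to 0.0939), 0.621 in numbers 2 and 5 (0.471 to 0.734) and 0.432 in numbers 3 and 6 (0.371 to 0.618). The last 2 ranges overlapped, and the low ratios in numbers 1 and 4 follow from the levels of the 2 genes there. The ratio of Pappa to Igfbp5 differed less, with medians of 0.875, 1.08 and 0.741 and overlapping ranges. Numbers 2 and 5 overlapped numbers 3 and 6 only through 24 h replicate 5, which had the lowest ratio of its set, 0.735. Without that library numbers 2 and 5 lay above the highest ratio of numbers 3 and 6, 0.835.

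Igfbp3 (chromosome 11, 7206086 to 7213923), the main carrier of IGF in serum, was level between 2 of the sets and lower in the third. It had 46.9, 52.5 and 55.2 CPM in numbers 1 and 4 and 51.3, 53.6 and 56.5 in numbers 2 and 5, which overlapped. Numbers 3 and 6 had 27.5, 31.4 and 34.3 CPM, below every other library, and their mean was 0.73 lower in log2 than in numbers 1 and 4 and 0.78 lower than in numbers 2 and 5. Of all pairs of members, Igfbp3 and Igfbp4 had the most similar profiles over the 18 libraries, with a root mean square difference of centred log2 CPM of 0.25, and Igfbp5 and Pappa came next with 0.36. Igfbp4 and Pappa were the least alike, at 1.31.

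Igfbp7 (chromosome 5, 77349240 to 77408041), a secreted protein with low affinity for IGF that is also deposited in matrix, was highest in numbers 3 and 6. It had 85.6, 90.2 and 101 CPM in numbers 1 and 4, 112, 116 and 177 in numbers 2 and 5, and 199, 217 and 249.8 in numbers 3 and 6. No set overlapped another. The ratio of numbers 3 and 6, from mean log2 CPM, was 2.42 to numbers 1 and 4 and 1.76 to numbers 2 and 5. Polr2b, a gene on the opposite strand that overlaps Igfbp7, ranged over 79.2 to 93.5 CPM in the 18 libraries. It had 79.2 to 89.0 CPM in numbers 1 and 4 and 83.2 to 85.4 in numbers 2 and 5. Numbers 3 and 6 had 87.0 to 93.5 CPM, overlapping numbers 1 and 4, and held the highest value, as for Igfbp7. The part of this overlap of genes in the Igfbp7 counts was not tested. The strand setting of the counting is not given in the sources used here.

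Igfbp6 (chromosome 15, 102144362 to 102149511), which binds IGF2 in preference to IGF1, was the lowest member tested in CPM. It had 2.15, 2.81 and 3.28 CPM in numbers 1 and 4, 3.43, 4.46 and 5.64 in numbers 2 and 5, and 2.52, 3.95 and 5.12 in numbers 3 and 6. The first 2 sets did not overlap, and numbers 3 and 6 overlapped both. Its smallest expected count was 17, in 24 h replicate 5, so single values carry more counting error than those of the other members.

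**Figure D1:**
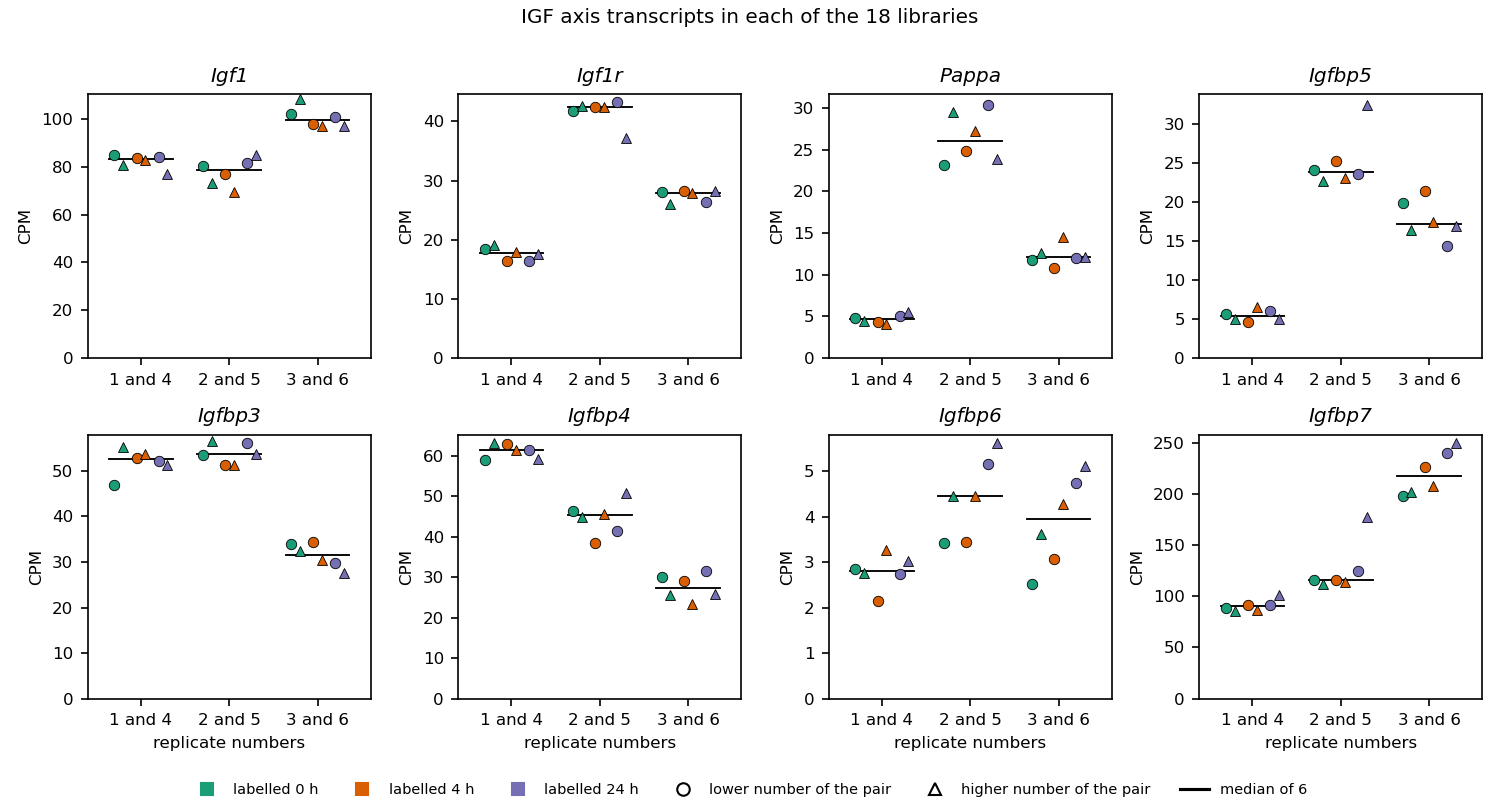
CPM (vertical axes, from 0) of the 8 tested members in the 18 libraries, arranged by replicate numbers (horizontal axes). Colours give the labelled time, circles and triangles the lower and higher number of each pair, and lines the median of 6. Igf1r, Pappa, Igfbp5, Igfbp4 and Igfbp7 form 3 separate bands by number, and each band holds libraries of all 3 labelled times.

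Of the tested members 6 of 8 had no overlap between numbers 2 and 5 and numbers 1 and 4, beside 35.3% of all genes tested: 5 were higher (17.4% of all genes) and 1 was lower (18%). For numbers 3 and 6 against 1 and 4 it was 7 of 8 (38.6% of all genes), with 5 higher (19.1%) and 2 lower (19.5%). For numbers 3 and 6 against 2 and 5 it was 7 of 8 (29.8%), with 2 higher (14.2%) and 5 lower (15.5%). At least 1 pair of sets was without overlap for 8 of 8 members (57.4% of all genes), and all 3 pairs were for 5 of 8 (7.43%), namely Igf1r, Pappa, Igfbp4, Igfbp5 and Igfbp7. The sets were recognised from these same data and the members chosen with them in view, so the counts are a description only. With library totals in place of scaled totals the counts were 3 of 8 members (15.4% of all genes) for numbers 2 and 5 against 1 and 4, 7 of 8 (40.8%) for 3 and 6 against 1 and 4, and 2 of 8 (27.7%) for 3 and 6 against 2 and 5. Without scaling, the members' share in the last comparison was thus near that of all genes. Every separation of a member lost in this way was lost through 24 h replicate 5, whose TMM scaling factor was 0.43. Among the other libraries these members stayed without overlap on library totals. The median size of the log2 difference was 0.55, 0.94 and 0.64 for the members in these 3 comparisons, beside 0.24, 0.23 and 0.22 over all genes tested. The number set accounted for 98.2% of the variance of Igf1r over the 18 libraries, 98.1% of that of Pappa and 96.6% of that of Igfbp5. It accounted for 83.9% to 94.7% in Igf1, Igfbp3, Igfbp4 and Igfbp7, for 48.3% in Igfbp6, and for a median of 62.7% over all genes. The labelled time accounted for 20.7% in Igfbp6 and 0.085% to 4.64% in the other 7, beside a median of 3.78% over all genes.

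The make-up of the binding-protein transcripts differed between the sets too. Summed over Igfbp2 to Igfbp7, the level had a median of 108 CPM per kb in numbers 1 and 4, 129.8 in numbers 2 and 5 and 203 in numbers 3 and 6. Igfbp7 made up a median of 69.1%, 73.8% and 88.7% of this sum. Igfbp4 made up 12.8%, 7.34% and 3.09%, and Igfbp3 15.3%, 12.8% and 5.09%. Igfbp5 contributed 0.840% in numbers 1 and 4, 2.97% in numbers 2 and 5 and 1.48% in numbers 3 and 6. All are shares of the same sum, so a share can fall where Igfbp7 is higher and the gene itself is level. Igfbp3 had median CPM of 52.5 in numbers 1 and 4 and 53.6 in numbers 2 and 5. The size of each share also depends on the exon lengths used.

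**Figure D2:**
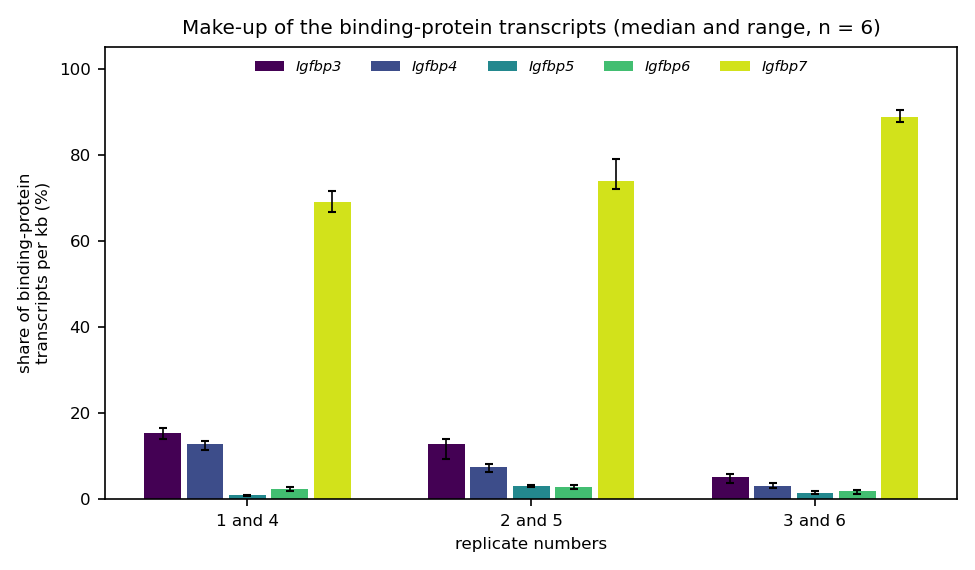
Share of each binding-protein gene (vertical axis, percent of the summed CPM per kb of exon of Igfbp2 to Igfbp7) by replicate numbers (horizontal axis). Bars are medians of 6 libraries and whiskers the lowest and highest. Igfbp2, at or near 0, is counted in the sum and not drawn. Igfbp7 holds 69.1%, 73.8% and 88.7%.

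Marker genes moved with the number sets as well. Brown adipocyte markers (10 of 10 tested) summed to 4223 to 4413 CPM in numbers 1 and 4, 3125 to 3616 in numbers 2 and 5, and 3452 to 4233 in numbers 3 and 6. Most of this sum was Fabp4, with medians of 2777, 1917 and 2178 CPM in this order of sets, and the other markers differed in direction. Plin1 (387, 106 and 179 CPM) and Ucp1 (15.6, 10.7 and 1.80 CPM) were highest in numbers 1 and 4, while Adipoq (438, 590 and 787 CPM) and Lipe (276, 301 and 311 CPM) had their lowest medians there. Preadipocyte and fibroblast markers (7 of 10 tested, with Thy1 and Dpp4 under 10 counts in every library) summed to 821 to 958, 1055 to 1521 and 1570 to 1967 CPM, the same order of sets as Igfbp7. Most of this sum was Col1a1 (medians 430, 517 and 838 CPM) and Col3a1 (336, 425 and 541 CPM). Pdgfra, Pdgfrb, Dlk1 and Ly6a had the same order of medians. Cd34 was lowest in numbers 2 and 5 (1.37, 1.16 and 2.12 CPM). Pi16, under the filter, had the opposite order (0.501, 0.192 and 0.108 CPM). Smooth muscle markers (3 of 4 tested, with Cnn1 under 10 counts in every library) summed to 23.0 to 26.6, 28.0 to 53.0 (35.3 without 24 h replicate 5) and 58.9 to 81.5 CPM. Most of this sum was Acta2 (medians 21.01, 26.5 and 54.0 CPM), and Myh11 had the opposite order of medians (1.449, 1.417 and 1.154 CPM), with overlapping ranges. Of 5 macrophage markers Adgre1, Ptprc and Lyz2 stayed under 10 counts in every library, and the list summed to 2.90 to 4.23 CPM overall. Endothelial markers (0 of 4 tested, with Cdh5 under 10 counts in every library) summed to 0.332 to 1.48 CPM. The part of these markers in the differences of the members was not tested.

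Norepinephrine is the stimulus that the labelled times stand for. Ppargc1a, a gene known to be induced by this stimulus in brown fat, had overlapping values of 115.6 to 140.1, 112.2 to 132.0 and 105.4 to 138.6 CPM at 0 h, 4 h and 24 h. Libraries grouped by replicate number and hardly by labelled time, and the cause of this grouping was not tested. Whether the time labels are those of the libraries is not known and was not tested either. Each fold change between times holds only as far as the labels do. At 4 h against 0 h none of the 8 members passed, with log2 fold changes from -0.06 (Igf1) to 0.07 (Igfbp7). At 24 h against 0 h none passed, with values from -0.07 (Igf1r) to 0.40 (Igfbp6), and at 24 h against 4 h none passed, with values from -0.06 (Igf1r) to 0.34 (Igfbp6). Among all 14788 genes 0 passed in each comparison (0.0%) with edgeR's quasi-likelihood test and likewise 0 with DESeq2. Unadjusted p-values under 0.05 were found for 173, 158 and 137 genes with edgeR (1.17%, 1.07% and 0.926%), none of them a member, and for 190, 160 and 121 with DESeq2. Libraries of 2 times did not overlap for 0.0676%, 0.0406% and 0.0% of genes in these comparisons, and all 8 members overlapped. The model with time alone carries the whole difference between number sets as error, so its intervals are wide: for Pappa at 24 h against 0 h the 95% interval of the log2 fold change ran from -1.19 to 1.21, and for Igfbp5 from -1.06 to 1.08.

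Intervals narrowed in the model blocked by replicate number, where again none of the 8 members passed (0.0%, 0.00676% and 0.0% of all genes at 4 h against 0 h, 24 h against 0 h and 24 h against 4 h). For Pappa at 24 h against 0 h the blocked interval was -0.07 to 0.25, for Igfbp4 -0.09 to 0.09, for Igf1 -0.10 to 0.06 and for Igfbp3 -0.16 to 0.04. At 4 h the blocked intervals were -0.19 to 0.12 for Pappa, -0.13 to 0.29 for Igfbp5 and -0.13 to 0.02 for Igf1.

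The largest differences between labelled times were those of Igfbp7 and Igfbp6 at 24 h. For Igfbp7 the values at 0 h, in the order of numbers 1 to 6, were 88.6, 116, 199, 85.6, 112 and 201 CPM, and at 24 h they were 91.9, 125, 240.0, 101, 177 and 249.8. It was higher at 24 h in 6 of 6 numbers, by 0.27 ± 0.22 in log2 (SD, n = 6). At 4 h Igfbp7 was also higher in 6 of 6, by 0.06 ± 0.07, where the smallest difference was 0.0003. Differences within a number assume that equal numbers pair single libraries, which the correlations do not show. Over all genes, 2.55% were higher at 24 h than at 0 h in 6 of 6 numbers, and 3.53% at 4 h. Igfbp7 was also higher at 24 h than at 4 h in 6 of 6 numbers, like 1.37% of all genes. The groups of 6 overlapped at both times. Fitted by time alone, the change at 24 h was 0.30 in log2 (SE 0.32, edgeR adjusted p = 1.00). With the replicate number as a block it was 0.26 (SE 0.06, 95% interval 0.13 to 0.39, edgeR adjusted p = 0.221). The number set as a block, which needs no such pairing, gave 0.26 (SE 0.06, edgeR adjusted p = 0.246). Number 5, where ribosomal RNA genes took most counts at 24 h, had the largest difference at 0.67, and without number 5 the mean difference was 0.20. Without that library the blocked fold change was 0.20 (SE 0.04, edgeR adjusted p = 0.119). In that library the preadipocyte and fibroblast markers also summed to 1521 CPM, beside 1055 to 1164 in the other libraries of numbers 2 and 5.

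Igfbp6 had 2.85, 3.43, 2.52, 2.77, 4.46 and 3.61 CPM at 0 h in the order of numbers 1 to 6, and 2.75, 5.15, 4.74, 3.02, 5.64 and 5.12 at 24 h. With the same assumption of pairing, it was higher at 24 h in 5 of 6 numbers and nearly level in number 1. Fitted by time alone, the change was 0.40 in log2 (SE 0.21, edgeR adjusted p = 1.00), and 0.44 with the block (SE 0.12, 95% interval 0.19 to 0.69, edgeR adjusted p = 0.245). In the blocked comparison of 24 h with 0 h, 4.52% of all genes were higher with an unadjusted p under 0.05, and Igfbp6 and Igfbp7 were the 2 members among them. At 24 h against 4 h the share was 2.39%, and the same 2 members were among them. After adjustment 1 gene passed at 24 h against 0 h, which is no member.

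**Figure D3:**
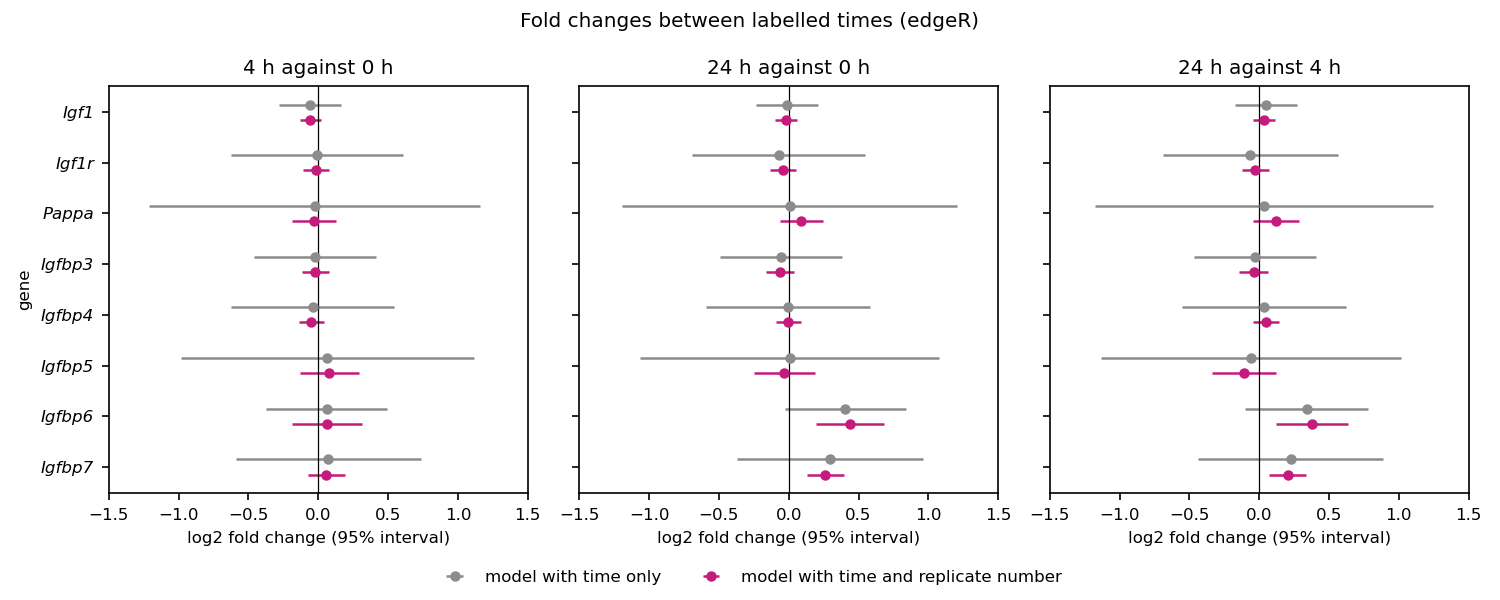
Log2 fold changes (horizontal axes) of the 8 tested members (vertical axis) between labelled times, with 95% intervals from edgeR over 18 libraries. Grey points are from the model with time alone and magenta points from the model with time and replicate number. All intervals but those of Igfbp6 and Igfbp7 in the blocked comparisons of 24 h include 0, and none of the fold changes passed after adjustment.

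Other genes of the axis were taken from a list of 23, of which 16 were tested. Of these 16, 6 were higher and 3 lower without overlap in numbers 2 and 5 than in numbers 1 and 4, beside 17.4% and 18% of all genes. In numbers 3 and 6 against 1 and 4, 7 were higher and 4 lower (19.1% and 19.5% of all genes), and against 2 and 5, 3 were higher and 2 lower, near the 14.2% and 15.5% of all genes. None of the 16 passed in any comparison of times, and their log2 fold changes ran from -0.10 to 0.10 at 4 h and from -0.13 to 0.11 at 24 h against 0 h. Stc1 encodes a stanniocalcin, of the family that inhibits PAPP-A. It had 11.4, 15.4 and 18.4 CPM in numbers 1 and 4, 4.75, 5.86 and 6.63 in numbers 2 and 5, and 7.72, 8.89 and 10.9 in numbers 3 and 6, an order opposite to that of Pappa. The sets did not overlap. The ratio of Pappa to Stc1 CPM had a median of 0.297 in numbers 1 and 4, 4.66 in numbers 2 and 5 and 1.44 in numbers 3 and 6, and its ranges of 0.222 to 0.487, 3.58 to 5.89 and 1.11 to 1.59 did not overlap. This separation of the ratio follows from the opposite orders of Pappa and Stc1 and is no further result. Stc2, the other stanniocalcin gene, lay under the filter with at most 0.814 CPM.

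**Figure D4:**
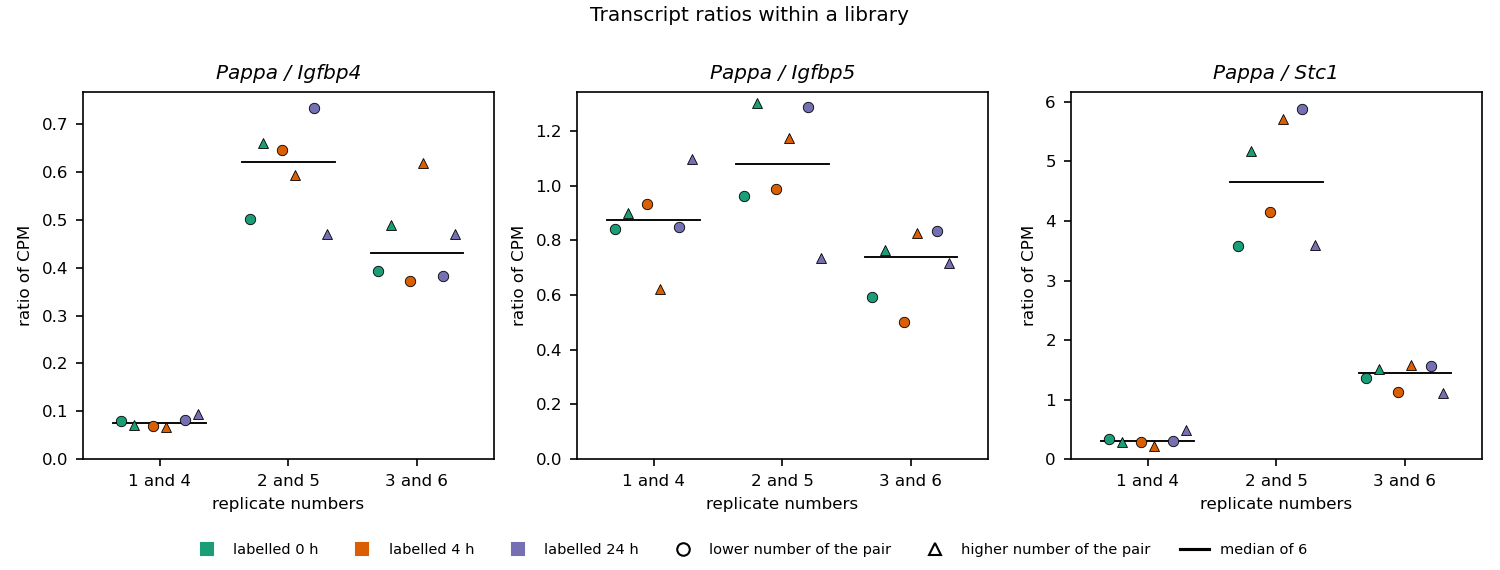
Ratio of Pappa CPM to those of Igfbp4, Igfbp5 and Stc1 (vertical axes, from 0) in each of the 18 libraries by replicate numbers (horizontal axes). Colours give the labelled time, circles and triangles the lower and higher number of each pair, and lines the median of 6. The ratios to Igfbp4 and Stc1 are lowest in numbers 1 and 4, with medians of 0.0759 and 0.297, while the ratio to Igfbp5 overlaps between the sets.

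Pappa2, a related protease that cleaves IGFBP3 and IGFBP5, had another order than Pappa. It had 1.40, 1.57 and 1.79 CPM in numbers 1 and 4, 2.38, 2.86 and 4.31 in numbers 2 and 5, and 5.44, 6.64 and 7.36 in numbers 3 and 6. The sets did not overlap, and the highest level fell in the set where Igfbp3 was lowest. Insr, the insulin receptor gene, had medians of 229, 307 and 215 CPM in the 3 sets and was highest in the same set as Igf1r. Of the adaptors that both receptors use, Irs1 had medians of 367, 594 and 514 CPM, and Irs2 178, 274 and 148. Irs2 separated all 3 sets. For Irs1 numbers 2 and 5 overlapped numbers 3 and 6 only through 24 h replicate 5, at 540 CPM. Without that library the lowest Irs1 value in numbers 2 and 5 was 583 CPM, above the highest in numbers 3 and 6, 558 CPM. Grb10, an inhibitor of both receptors, had medians of 88.5, 72.8 and 71.2 CPM, with the values of numbers 1 and 4 above all others. Igf2r, the receptor that clears IGF2, ranged over 229 to 307 CPM, and its sets overlapped in every pair. Igfbp1 had no count in any library and H19, the noncoding neighbour of Igf2, at most 0.500 CPM.

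Genes whose profile over the 18 libraries came closest to a member were found by the smallest root mean square difference of centred log2 CPM among 9030 candidates, for the 5 members whose SD was at least 0.5. For Pappa they were Atoh8 (0.17), Rap1gap2 (0.25) and Tnc (0.29), and Atoh8 had medians of 4.36, 22.7 and 10.8 CPM in the 3 sets. For Igfbp5 they were Prkg2 (0.29), Gcnt4 (0.29) and Net1 (0.31). For Igf1r they were Cat, which encodes catalase (0.10), Il6ra (0.10) and Impdh1 (0.11). For Igfbp4 they were Aldh1a7 (0.10), Npnt (0.12) and Klf9 (0.12). Igfbp7 was closest to Aebp1 (0.12), Lpar1 (0.13) and Timp2 (0.14), an inhibitor of matrix metalloproteinases. These values share libraries, depth and scaling, and describe likeness only.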

How the data were processed

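RNA of 18 libraries (250 ng each, depleted of ribosomal RNA, 52-base read pairs) was profiled, per the labels' protocols. Expected counts of each gene came from salmon, per the labels, and were deposited as 1 merged table with 27.4% of values over 0 not whole. Tools named in the submitters' processing notes are edgeR and limma, and the build is mm10. Not given in the sources used here are the annotation, the strand setting and the version of salmon. Counts were rounded, filtered by filterByExpr (minimum count 10, minimum total 15; at least 99.9% of each library kept) and scaled by TMM, and log2 CPM used a prior count of 2. Totals ranged from 7010742 to 26501223.

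Labelled times were compared by a robust quasi-likelihood F-test in edgeR, fitted to the 18 libraries with time as the only factor, two-sided, with Benjamini-Hochberg adjustment over 14788 genes and a threshold of 0.05. The fitting script was tested on simulated data with differences between replicate numbers built in. That check set a requirement only for the model with the number as a block, at 24 h against 0 h. Deviations from the time means of same-numbered libraries correlated from 0.297 to 0.718 in 18 pairs. Libraries of the other number in the same set correlated from 0.237 to 0.688, also in 18 pairs. The correlations thus show likeness within a set, and not that equal numbers pair single libraries. A model with the number as a block was fitted too. Differences taken within a number assume this pairing. Other alternatives were the number set as a block, DESeq2, its size factors, no filter, and leaving out 24 h replicate 5. The last was also combined with the block, chosen after seeing the data. Members, number sets and lists were chosen with earlier results of these data known. The genes named are the 10 members, 10 genes of the list of 23, the 3 genes nearest to each member with SD of at least 0.5 (mean log2 CPM at least 3, no predicted or mitochondrially encoded genes) and cell type markers. Polr2b was added after its overlap was seen, and the rest of the list is given by counts. Tools were DESeq2 1.42.0, edgeR 4.0.16 and limma 3.58.1 in R 4.3.3, and pandas 2.3.3, numpy 2.4.6 and matplotlib 3.10.9 in Python 3.11.15. Positions are from GENCODE M21 (mm10), in which 45143 of the 45706 identifiers were found.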

Additional observations from a re-analysis of the deposited data

Results flagged for a closer look

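In 3 cases a library lay far from the other 5 of its number set, by a gap that takes over 0.625 of the whole range, and each time it was 24 h replicate 5 in numbers 2 and 5. Igf1r had 37.1 CPM there, below 41.8 to 43.3 in the other 5. Igfbp5 had 32.5 CPM, above 22.7 to 25.2, and Igfbp7 had 177 CPM, above 112 to 125. This library is the one in which ribosomal RNA genes took 63.9% of counts. Chance flags about 1 in 20 such groups, and 48 groups were looked at, those by labelled time included. No library was singled out by labelled time, where each group held 2 libraries of every number set. For members whose sets lie apart, such a group left little room for a single outlying library. The rate of 1 in 20 does not hold for those groups, and the absence of a flag there says nothing. The 3 cases are all of 1 library and are not independent of each other.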

How the results depend on the processing

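With the replicate number as a block, 1 gene was called at 24 h against 0 h in place of 0, and 1 as well when 24 h replicate 5 was also left out. That gene is no member. In all other alternatives run the count of genes called between times was 0, and no member passed in any of them. The block changed no call of a member. Among the fold changes of members, the sign turned only for values near 0 in the model with time alone. At 24 h against 0 h, Igfbp4 (log2 -0.0038) became 0.0066 with DESeq2 and 0.00027 with its size factors in edgeR. Igfbp5 (0.0062) became -0.030 with the number-set block, -0.031 with the replicate block, -0.23 without 24 h replicate 5 and -0.10 with the replicate block and without that library. Pappa, without 24 h replicate 5, became -0.13 at 24 h against 0 h (from 0.0069) and -0.11 at 24 h against 4 h (from 0.03). Of 24 pairs of a member and 2 number sets, 20 did not overlap, and 12 when library totals were used with no further scaling. These 12 were 3, 7 and 2 of 8 members for numbers 2 and 5 against 1 and 4, 3 and 6 against 1 and 4, and 3 and 6 against 2 and 5, beside 15.4%, 40.8% and 27.7% of all genes, so the last count was near the share of all genes. That scaling shifted the median of all genes by -0.17 for numbers 2 and 5 against 1 and 4, 0.16 for 3 and 6 against 1 and 4 and 0.32 for 3 and 6 against 2 and 5, and turned no difference without overlap the other way. The pairs that came to overlap on library totals did so only through 24 h replicate 5, whose TMM scaling factor was 0.43. Depth limits Igf2 and Igfbp2, where 3 counts correspond to 0.112 to 0.995 CPM.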
